A study of Zea mays with 168 samples.

Results

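The spots described here set the maize inbred line 301 apart from 3 other inbred lines in the primary root. They were chosen from the measured values themselves. In each channel of the deposited value table the column median was subtracted, and a deviation was formed for each inbred line as its mean log2 level minus the mean of the other 3 lines. A spot was a candidate if its identifier was printed once and if it was not among the 200 spots of highest mean level, and 10835 of 12160 spots on the array met this. The deviation of 301x301 was the largest of the 4 lines, in absolute size, at 3037 candidates, and the 200 of these with the largest deviation are the members. Of the members, 48 (24%) were higher in 301x301 than in the other lines and the rest were lower. All inbred levels below therefore describe the choice and carry no test.

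The study measured polyadenylated RNA of primary roots 3.5 days after germination, at 26°C and 60% humidity with 16 h of light and 8 h of dark, in 4 inbred lines and their 12 reciprocal hybrids, on spotted cDNA arrays read in 2 colours. Per the labels' protocols, a biological replicate was a pool of about 20 roots, and each is read here in 1 dye channel of a slide. Genotypes are written with the line named first and then the line named second, so that 301x002 and 002x301 are reciprocal hybrids, and the deposited notes write line 301 as UH301. Of 84 slides, 76 were used, each with both channels. The line itself, 301x301, had 19 channels. The 6 hybrids with 1 parent 301 had 9 (301x002), 8 (002x301), 7 (301x005), 7 (005x301), 8 (301x250) and 8 (250x301) channels. The 6 hybrids without it had 7 (002x005), 6 (005x002), 8 (002x250), 8 (250x002), 6 (005x250) and 5 (250x005) channels. The other inbred lines had 16 (002x002), 14 (005x005) and 16 (250x250) channels. No other treatment, transgene or allele is named in the labels.

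An inbred line is nearly homozygous, and a first-generation hybrid of a pair of such lines carries 1 copy of each parental allele of a nuclear gene. When the difference between lines lies in or near the gene itself, a hybrid commonly shows a transcript level between those of its parents. A level midway between them is called additive expression. Levels away from that midpoint, within or outside the range of the parents, are called non-additive. Such levels, and differences between reciprocal hybrids, are often examined in studies of heterosis, the superior growth of hybrids over their parents. A level on a spotted array also depends on the printed spot, on the slide and on the dye, and both channels of a slide read the same spots.

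The members are identified by the cDNA clone accession listed for the number of the spot. None of the 200 matched a symbol or accession of the maize RefSeq table (assembly Zm-B73-REFERENCE-NAM-5.0), in which 8 identifiers of the whole array were found. The files do not pair the identifiers with gene names either, so that no function, pathway or sequence is given for any member, and the labelled tissue could not be checked against root marker genes. The identifiers themselves need caution, since the levels of 397 identifiers printed on 2 spots had a rank correlation of 0.24. The 11 identifiers printed on 12 spots agreed better, with a median SD of 0.367 over their spots against 1.16 over all spots. Intensities of the scanner tables, which list the identifiers, were put in another row order to follow the value table (median rank correlation 0.998). The identifiers were taken by spot number, without that reordering, and which order is right for them was not tested. The accessions named, the filter for identifiers printed once and the spots without an identifier rest on this. Labels and titles name different dyes for samples of 10 slides. The title was used, with the label field for 1 sample whose slide would otherwise carry the same dye in both titles.

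Entries listed at exactly 0 entered the choice of the lower members. The value table held 7843 such entries over all 84 slides, 7711 of them on 5 slides, while no channel of the other slides had more than 8. On slide 999, which carried 301x301 beside 301x002, 1679 spots were at 0 in both channels, among them all spots of 4 of the 32 print blocks. At 150 of the lower members, 98.7% of them, at least 1 of the 19 values of 301x301 was at 0 (98 members once, 51 in 2 channels and 1 in 3 channels), all 150 on slide 999 and 52 also on slide 998. None of the 48 higher members had a 0 in any inbred channel. Among all candidates, 14.3% had a 301x301 value at 0.

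The scanner tables held a signal at many of these spots. In the 301x301 channel of slide 999 the scans at 20, 30, 35 and 40% photomultiplier gain were at 0 on all 1679 spots. The scan at 50% gain was above 0 at 1140 of them. Its median rank correlation with the other scans was 0.06, and it was not used. The scan at 55% gain was above 0 at 1512 of the 1679 spots. Its median intensity was 1461 there and 1567 at the other spots of the slide. For 90% of the 150 lower members a level could be taken from this scan. The median of these levels lay 0.15 below the column median on the log2 scale, against 1.44 below it in the other 301x301 channels and 0.93 below it in the other inbred lines.

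With the entries at 0 as deposited, the lower members had deviations of -1.39 to -0.86 (median -0.94). Treated as missing, the same entries left deviations of -0.93 to -0.04 (median -0.45), all still below 0 but only 3 at least as far from 0 as the last member chosen. The higher members had deviations of 0.86 to 1.34 (median 0.95), and a median of 0.94 with these entries missing. The median over all candidates was -0.07, and -0.03 with these entries missing. At the edge of the choice, AI691293 and AW065767, the last 2 members, deviated by -0.8574 and -0.8569, and AW042405 and AW424684, the next 2 spots, by -0.8558 and 0.8545. Levels below treat entries at 0 as missing unless stated otherwise.

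**Figure D1:**
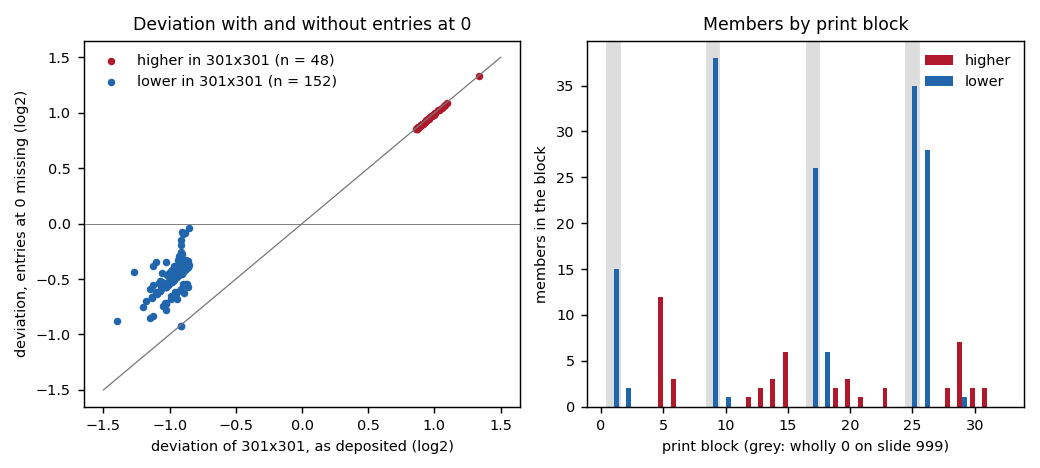
Left, deviation of 301x301 from the other 3 inbred lines with entries at 0 as missing (vertical axis, log2) against the deviation as deposited (horizontal axis, log2), 1 point for each higher (48) and lower member, with the line of equal values. Right, number of members in each of the 32 print blocks, with the 4 blocks that were wholly at 0 on slide 999 in grey. The higher members lie on or close to the line, the 150 lower members with an entry at 0 lie above it and the 2 without one lie just below it, and 75% of the lower members stand in the grey blocks.

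The lower members were grouped on the array where slide 999 lists entries at 0. The 4 print blocks that slide 999 lists wholly at 0 held 75% of them, and 93.4% with block 26 added. These 4 blocks held 12.9% of all candidates. Block 26, with 40 spots at 0 on slide 999, held 340 of the 10835 candidates. No higher member lay in the 4 blocks. The 48 higher members were spread over 14 blocks, with 12 in block 5, 7 in block 29 and 6 in block 15. Higher and lower members also differed in brightness. The higher ones had a median level of 1.68 over all channels, and 29 of 48 exceeded the level that 2.5% of the spots without an identifier exceed (1.56). The lower ones had a median level of -0.54, and 3 of them exceeded it. The share was 11.6% over all candidates.

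Among the higher members, AW331262 had the largest deviation, 1.34. Its log2 level ran from 2.36 to 12.19 with a median of 4.62 in the 19 channels of 301x301, against 0.73 to 5.71 with a median of 3.61 in the 46 channels of the other lines. All 301x301 channels but 1 lay within the range of the other lines. The value of 12.19 was that of slide 302, with the next at 5.67. Without slide 302 the deviation was 0.92.

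AI947314 had levels of -0.28 to 4.67 (median 2.79) in 301x301, against -0.96 to 4.19 (median 1.51) in the other lines. Its least deviation with 1 slide left out was 0.97. AW055445 was at -0.37 to 4.21 (median 2.39) in 301x301 against -1.21 to 3.96 (median 1.26) in the others. In both, channels of 301x301 lay over nearly the whole range of the other lines, with the median nearer to its upper end.

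AW331177 ran from 0.40 to 7.78 (median 2.15) in 301x301, against -0.06 to 3.53 (median 1.32) in the other lines. Its highest value again came from slide 302, and its deviation without that slide was 0.77. That entry was also above 16 as deposited, and the deviation from scanner intensities was 0.90. AW400348 had levels of -0.16 to 5.89 (median 1.38) in 301x301, against -0.75 to 5.80 (median 0.57) in the other lines. In this spot 3 channels of 301x301 and 1 of 005x005 stood above all others.

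**Figure D2:**
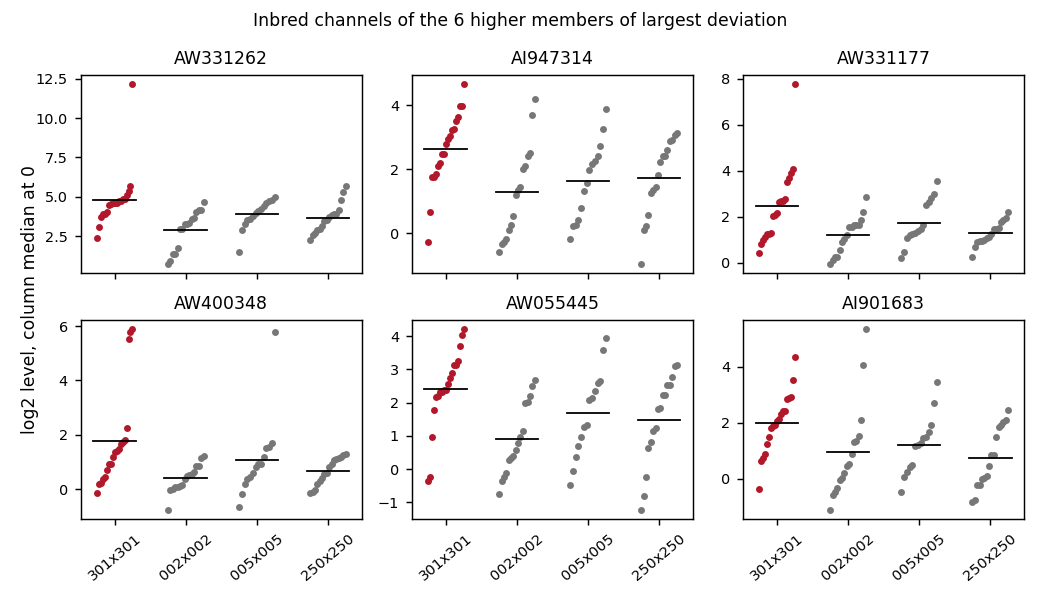
Log2 level relative to the column median (vertical axes) of the 6 higher members of largest deviation in each inbred channel, with 301x301 in red and the other lines in grey. Points are channels, sorted within a line, and bars are means. The lines overlap in all 6 members, and AW331262 and AW331177 each have 1 channel of 301x301 far above the rest, at 12.19 and 7.78. Both entries were above 16 as deposited, before the column median was subtracted.

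The lower member of largest deviation was BM079864, at -1.39 as deposited and -0.88 with its 1 entry at 0 missing. Its log2 level was -2.87 to 1.73 (median -0.28) in the 18 channels of 301x301 left, against -1.30 to 4.41 (median 0.61) in the other lines. AI782859, with 2 entries at 0, had levels of -2.34 to -0.09 (median -1.43) in the remaining 17 channels of 301x301, against -2.19 to 3.48 (median -0.69) in the others. The deviation of AW037021 was -1.27 as deposited and -0.44 with its 3 entries at 0 missing. All 3 members overlapped between 301x301 and the other lines.

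No member had all its 301x301 channels outside the range of the other lines, nor had any of the 10835 candidates (0%). The deviation exceeded the SD among the 301x301 channels at 8 of 48 higher and 15 of the lower members, and at 1.19% of all candidates. The deviation of every higher member stayed above 0 when any 1 slide with 301x301 was left out (least values 0.41 to 0.97, median 0.81). All lower members but 1 stayed below 0 (median of the least values -0.38). The same channels chose the members, so a sign that stayed is no support for them.

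The members varied together from slide to slide. Over 17 channels of 301x301, slides 998 and 999 left out, the median Pearson correlation between 2 higher members was 0.43 and that between 2 lower members 0.53, against 0.0019 between any 2 candidates. These are descriptions, since the spots of a pair are read on the same slides and in the same dyes, and the members were chosen in the same channels. On the 11 slides that held only hybrids, which the deviations did not use, the medians were 0.33 for the higher, 0.45 for the lower members and 0.0039 for all candidates. Many members share a print block, and whole blocks shifted on these slides. The median difference of all candidates between hybrids with and without 301 ran from -0.48 in block 8 to 0.35 in block 29. The part of block and brightness in these correlations was not tested.

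The 19 slides with 301x301 differed widely among themselves. Set against the mean of the other 3 lines, the median of the higher members was above 0 in the 301x301 channel of 17 slides, and ran from -0.81 on slide 925 to 2.29 on slide 559 (median 0.96). The hybrid read in the other channel of the same slides gave -0.68 to 2.09 (median 0.85), also above 0 on 17 slides. The lower members gave -1.49 to 0.34 (median -0.35) in 301x301 and -1.43 to 0.27 (median -0.26) in the hybrid beside it, over the 18 slides other than slide 999, on which 2 of the lower members had a value. Across slides, the medians of the 2 channels had a Pearson correlation of 0.97 and a Spearman correlation of 0.96 for the higher members (n = 19), and of 0.85 and 0.82 for the lower members (n = 18). The channels of a pair share the printed spots and the hybridization.

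**Figure D3:**
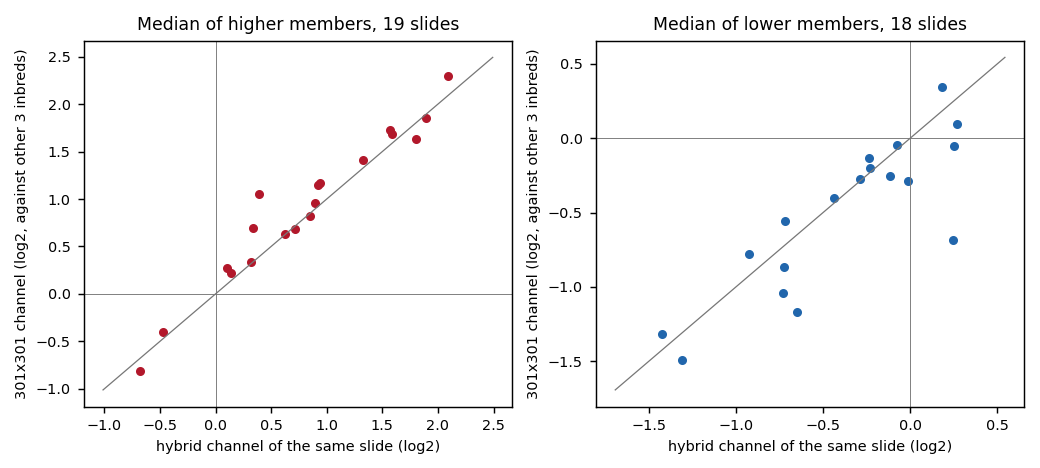
Median log2 level of the members in the 301x301 channel (vertical axes) against that in the hybrid channel of the same slide (horizontal axes), both relative to the mean of the other 3 inbred lines, 1 point for each slide, with the line of equal values. The higher members (left, 19 slides) and the lower members (right, 18 slides) lie along the line, so that a slide high in 301x301 is high in its hybrid as well.

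Over all candidates, the log2 levels of 301x301 channels of different slides had a median Pearson correlation of 0.704 (171 pairs), and those of both channels of a slide one of 0.935 (76 slides). Once the mean of each spot over all channels was subtracted, the medians were 0.0097 between 301x301 channels of different slides and 0.803 between both channels of a slide. The difference between 301x301 and the hybrid beside it was therefore also taken within slides. The median over the 48 higher members was 0.07, with 43 above 0, and that over the lower members was -0.08, with 86.8% below 0. Over all candidates it was 0.0046, with 51.7% above 0. Where a hybrid lay midway between 301x301 and the mean of the other lines, this difference would be 0.47 for the higher and -0.23 for the lower members. These slides served to choose the members, so no test is attached.

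The spread of a channel varied with the level of the members. The interquartile range of the log2 values over all candidates was 0.78 to 2.67 (median 1.79) in the 301x301 channels, against 0.75 to 2.55 (median 1.35) in those of the other lines. Over the 65 inbred channels it had a Pearson correlation of 0.83 and a Spearman correlation of 0.82 with the median level of the higher members. With that of the lower members it had -0.67 and -0.60 (64 channels, slide 999 left out). The part of this spread in the deviations was not tested. Quantile normalization gives all channels the same spread, and was run with the entries at 0 left in. The median deviations of the same members were then 0.68 and -0.30, against 0.95 and -0.94 as deposited. For the lower members, spread and entries at 0 cannot be told apart in this change.

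Deviations also differed between ranges of slide numbers, each of which holds 301x301 and at least 2 other lines. The median of the higher members was 0.64 on slides 0 to 61, 0.94 on slides 273 to 309, 2.32 on slides 471 to 561, where 301x301 had 2 channels, and 0.39 on slides 916 to 999. The lower members had medians of -0.25, -0.0004, -1.67 and -0.49 in the same order. Between the dyes the higher members differed less, with medians of 0.83 for Cy3 and 1.11 for Cy5, and so did the lower ones, with -0.40 and -0.54. At least 46 of the 48 higher members kept their direction in every range, while 76 of the lower members did so on slides 273 to 309. These channels also chose the members, so a direction that was kept is no support for them.

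By genotype, the median level of the higher members in a channel averaged 2.47 ± 0.93 in 301x301 (SD, n = 19). In the hybrids with 301 it averaged 2.23 ± 0.27 in 250x301 (n = 8), 2.06 ± 0.43 in 301x250 (n = 8), 2.02 ± 1.32 in 005x301 (n = 7), 2.02 ± 1.12 in 301x005 (n = 7), 1.93 ± 1.11 in 002x301 (n = 8) and 1.53 ± 0.90 in 301x002 (n = 9). In the hybrids without 301 it averaged 1.98 ± 0.42 in 005x002 (n = 6), 1.87 ± 0.57 in 005x250 (n = 6), 1.66 ± 0.52 in 250x005 (n = 5), 1.51 ± 0.77 in 002x005 (n = 7), 1.15 ± 0.76 in 250x002 (n = 8) and 1.14 ± 0.79 in 002x250 (n = 8). The other inbred lines had 1.73 ± 0.96 (005x005, n = 14), 1.62 ± 0.67 (250x250, n = 16) and 1.17 ± 0.70 (002x002, n = 16). All neighbours in the order of these means differed by less than their SDs. The 4 highest hybrid means belonged to crosses with 301, but the mean of 301x002 was below those of the other 5 hybrids with 301 and those of 005x002, 005x250 and 250x005.

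The lower members averaged -1.0 ± 0.51 in 301x301 (SD, n = 19). The lowest hybrid mean was -1.07 ± 0.48 in 250x301 (n = 8), a hybrid with 301, and the highest was -0.22 ± 0.41 in 250x005 (n = 5), a hybrid without it. The other hybrids with 301 ranged from -0.78 ± 0.42 in 301x005 (n = 7) to -0.46 ± 0.36 in 301x002 (n = 9). The other hybrids without 301 ranged from -0.55 ± 0.53 in 005x250 (n = 6) to -0.38 ± 0.42 in 002x250 (n = 8). The other inbred lines had -0.68 ± 0.45 (250x250, n = 16), -0.53 ± 0.36 (005x005, n = 14) and -0.44 ± 0.44 (002x002, n = 16). The ranges of all 16 genotypes overlapped. Slide 999 counts in the means of 301x301 and 301x002, though only 2 of the lower members had a value there. Its channel medians were -1.53 in 301x301 and -1.13 in 301x002, the lowest of that hybrid.

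**Figure D4:**
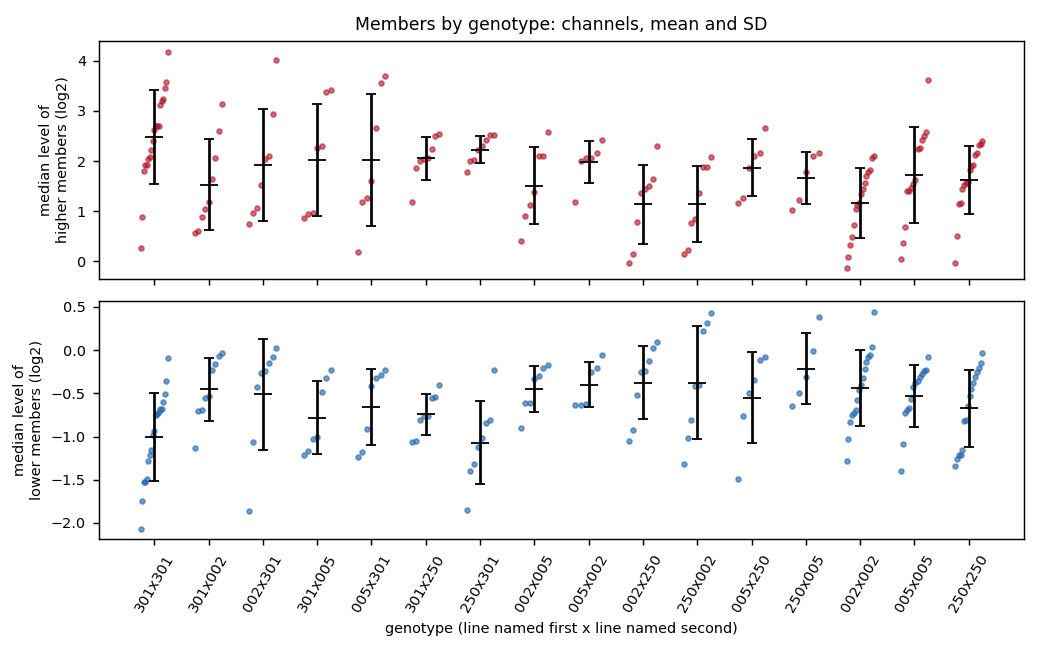
Median log2 level of the 48 higher members (top) and of the lower members (bottom) in each channel, by genotype, with 301x301 first, then hybrids with 301, hybrids without 301 and the other inbred lines. Points are channels sorted within a genotype, horizontal marks are means and bars are SDs. In the bottom panel the channels of slide 999 (301x301 and 301x002) rest on 2 lower members. 301x301 has the highest mean of the higher members, at 2.47, and channels of every genotype overlap with those of 301x301.

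The hybrids with and without 301 were compared in 3 sets, by what shared their slide. Beside 301x301 (19 slides), hybrids with 301 exceeded hybrids without 301 read beside other inbred lines (28 slides) at 48 of 48 higher members, where 49.9% of all candidates did, with a median difference of 0.94. They were lower at 97.4% of the lower members, where 50.1% of all candidates were, with a median of -0.58. Since these channels share their spots with those that chose the members, this is no independent evidence.

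Beside another inbred line (18 slides with 301 against 28 without), 40 of 48 higher members were higher in the hybrids with 301, against 52.3% of all candidates, with a median difference of 0.23. At 110 of the lower members (72.4%) the hybrids with 301 were lower, against 47.7% of all candidates, with a median of -0.20. The other inbred lines of these slides also entered the deviations.

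The 11 slides that carried only hybrids had no part in the choice of members. Slides 37, 61, 301, 995 and 996 carried both reciprocal hybrids of 301 with 1 other line, and slides 44, 46, 295, 471, 560 and 919 those of a pair without 301. The median level of the higher members was 2.26, 2.00, 1.08, 0.96 and 1.77 on the slides with 301, and 1.07 to 2.49 (median 1.70) on the 6 without. It averaged 1.61 ± 0.57 with 301 (SD, n = 5 slides) and 1.70 ± 0.59 without (n = 6 slides), and the slides overlapped almost fully. The lower members gave -1.07, -0.79, -0.47, -0.07 and -0.21 with 301, and -1.04 to 0.18 (median -0.29) without. Their averages were -0.52 ± 0.41 with 301 (n = 5 slides) and -0.38 ± 0.45 without (n = 6 slides), again with overlapping slides.

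A spot-wise limma fit over these 11 slides, with the mean of both channels of a slide as 1 value, called none of the 10835 spots at an adjusted p under 0.05 (Benjamini-Hochberg, 0%, smallest adjusted p = 0.719), and so none of the 200 members. At an unadjusted p under 0.05 there were 724 spots (6.68%), among them 9 of the 48 higher members (5 higher in the hybrids with 301, beside 3.29% of all spots, and 4 lower, beside 3.4%) and none of the lower members. The higher members were higher with 301 at 21 of 48 spots, where 45.2% of all candidates were, with a median difference of -0.02. With the hybrid channels beside another inbred line added, 72.9% of the higher members were higher with 301. The inbred channels of the added slides entered the choice, so this share is not independent of it. On the added slides alone, 53.6% of all candidates were higher with 301, with entries at 0 as deposited. The share of all candidates over the combined slides is not given here, so the 72.9% has no matching background. The lower members were lower with 301 at 99 spots (65.1%), where 54.8% of all candidates were, with a median of -0.09 beside -0.05 for all. Without slide 37 (301x250 and 250x301) the share of lower members in their own direction was 38.2% instead of 65.1%, and their median turned to 0.06. The median of the higher members lay between -0.19 and 0.16 with 1 slide left out, and was above 0 without slide 301, 471, 560, 919 or 995. The median standard error was 0.40 for the higher members, which gives a 95% interval of 0.86 to either side of a member's difference. The deviations were of about that size (median 0.95), but they compare inbred lines. Of line 301, 301x301 carries 2 copies and its hybrids 1. Hybrids midway between 301x301 and the mean of the other lines would differ from that mean by 0.47 at the higher members. In simulated data with log2 changes of 1, this fit called 0.5% of the changed spots.

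AW787852 had the smallest p among the members. It had log2 levels of 3.09, 3.95, 3.50, 4.01 and 4.02 on the slides with 301, and 2.38 to 2.95 (median 2.66) on those without. The slides with 301 all lay above those without. The difference was 1.05 (standard error 0.26), with an adjusted p of 0.719 by limma (unadjusted p = 0.00108).

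AW331177 showed the same order, with 2.11, 2.68, 2.52, 2.33 and 2.82 with 301, against 1.25 to 1.94 (median 1.49) without. AW927771, at 1.68, 1.75, 1.15, 1.32 and 1.52 with 301 against 0.91 to 1.04 (median 1.01) without, was the only other member whose slides did not overlap. Such a separation upwards was found at 3 of 48 higher members and no lower member, and at 0.231% of all candidates. AW787852 and AW927771 were singled out here after their values were seen. The inbred deviation of AW927771 rested in part on 1 channel, which stood at 10.62 on slide 925, and was 0.41 without that slide. That entry was above 16 as deposited, and scanner intensities gave a deviation of 0.62.

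AW331262, the member of largest positive deviation, had log2 levels of 4.05, 4.77, 4.27, 3.30 and 4.17 on the slides with 301, and 2.99 to 4.42 (median 3.76) on those without. The slides overlapped, and the difference was 0.46 (standard error 0.33, adjusted p = 0.807 by limma). BM079864, the member of largest negative deviation, had -0.61, 0.45, 1.41, 1.05 and 2.17 with 301, and -1.02 to 2.12 (median 0.99) without. Its difference was 0.28 (standard error 0.57, adjusted p = 0.923 by limma), and the slides overlapped, with only slide 996 above the range of those without. AI782859 had -2.40, -1.42, -0.79, -0.32 and -0.64 with 301, and -2.31 to -0.27 (median -0.75) without, a difference of -0.19 (standard error 0.42, adjusted p = 0.930 by limma), again with overlap.

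AW787852, AW331177 and AW927771 lie in the same print block, block 29, which held 7 higher members. Of all 340 candidates of that block, 89.1% were higher with 301 on the hybrid-only slides, with a median difference of 0.35, and 6 of its 7 higher members were. In block 5 the order was the opposite. There 12.8% of the 329 candidates were higher with 301, with a median difference of -0.37, and none of the 12 higher members was. AI947314 of that block had 1.95, 0.54, 0.26, 0.36 and 0.86 with 301, against 0.39 to 3.41 (median 2.00) without, a difference of -1.06 (standard error 0.51, adjusted p = 0.755 by limma).

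Taken over blocks, 15 of the 18 higher members in blocks whose candidates had a median above 0 were higher with 301, whereas 6 of the 30 in blocks with a median below 0 were. After subtracting the median of each print block on each slide, the median difference of the 7 higher members of block 29 was 0.11 instead of 0.50, that of the 12 in block 5 was -0.26 instead of -0.61, and AW331177 differed by 0.52.

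**Figure D5:**
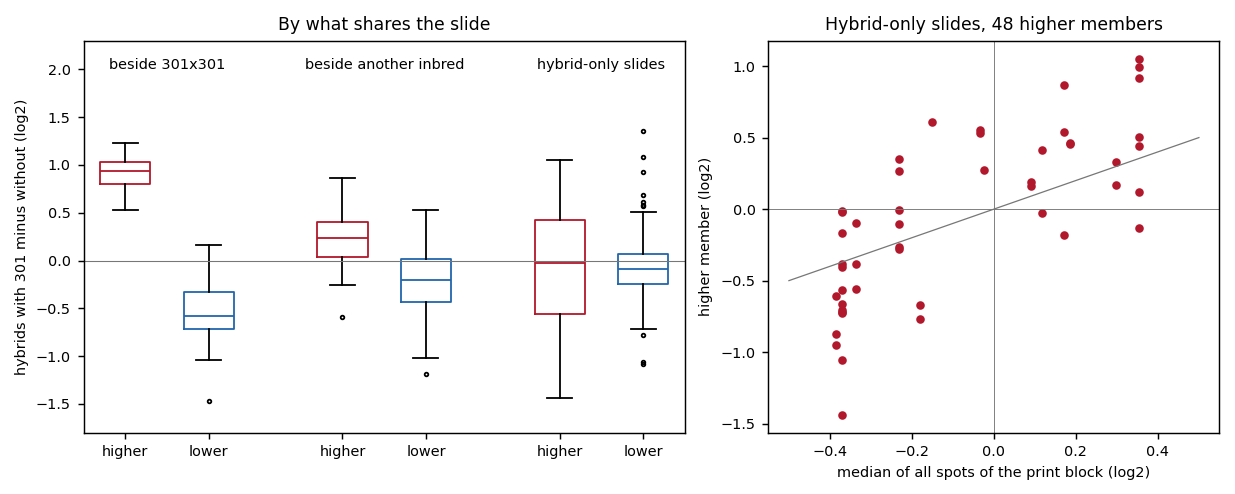
Left, difference in log2 level between hybrids with and without 301 for the 48 higher members and the lower members, by what shared the slide, as boxes of median and quartiles with whiskers to the farthest values within 1.5 interquartile ranges. Right, the same difference on the hybrid-only slides for each higher member (vertical axis) against the median difference of all candidates in its print block (horizontal axis), with the line of equal values. The medians are 0.94, 0.23 and -0.02 for the higher members from left to right, and members of blocks to the left of 0 mostly lie below 0.

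Reciprocal hybrids were compared on slides 37, 61, 301, 995 and 996, which hold 301 as the first and as the second parent in their 2 channels. The ratio within the slide, with a dye effect, was fitted by limma. Slides 995 and 996 are among those with conflicting dye labels. None of 10835 spots was called (0%, smallest adjusted p = 1.00), and 289 had an unadjusted p under 0.05 (2.67%), among them 2 members higher (0.849% of all spots) and 3 lower (1.82%) where 301 was named first. The higher members had a median of -0.07, with 17 of 48 higher where 301 was named first, and the lower members one of 0.06, with 98 higher (64.5%). Over all candidates the median was 0.02, with 54.3% higher. Without slide 61 the share of higher members above 0 was 22.9% instead of 35.4%, and with scanner intensities it was 18.8%, with a median of 0.24 instead of 0.06 for the lower members. With the dyes of the label field on slides 995 and 996, an alternative chosen after seeing the data, the medians were -0.08 and 0.07 and none was called.

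AW331262 had a difference of -0.37 between 301 as first and as second parent (standard error 0.15, adjusted p = 1.00 by limma), and AW331177 one of 0.10 (standard error 0.16, adjusted p = 1.00 by limma). The 95% interval was 0.45 to either side for a typical higher member and 0.37 for a typical lower one.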

How the data were processed

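The members and lists were chosen with earlier results of these data known. The authors deposited a table of log2 values, 1 column for each dye channel, and scanner tables of linear spot intensity at several gains. The scan choice and normalization behind the log2 values are not stated in the labels or file headers, nor is the scanner software. Slides 0, 1, 18, 19, 48, 288, 289 and 472 were left out, column medians were subtracted, and the 200 brightest spots and repeated identifiers were left out. Named members are the 10 largest deviations in each direction, members called in a test, and the spots at the edge of the choice. Not all are printed.

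Each slide counted once. The hybrid comparison used limma 3.58.1 (R 4.3.3) on slide means of 11 hybrid-only slides, the reciprocal comparison on within-slide log2 ratios of 5 slides with dye as a term, both with Benjamini-Hochberg adjustment over 10835 spots. Both were run on simulated data in which 200 spots changed. At a log2 change of 1, the hybrid comparison called 0.5% of the changed spots and the reciprocal comparison 52.5%. At a change of 2 the shares were 78.5% and 93%. Tables were made with Python 3.11.15, pandas 2.3.3 and scipy 1.17.1. Scanner intensities served as an alternative (normexp, offset 50, the scans of a channel combined below 45000), after their rows were turned to the order of the value table. The identifiers were not turned. Of 991 scans, 13 that ranked spots unlike the others were left out, and 18 further columns, which no label could be matched to, were left out. The number of slides limits the precision. The labels' protocols and series text describe replicates as separate root pools.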

Additional observations from a re-analysis of the deposited data

Results flagged for a closer look

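In the 301x301 channel of slide 999, 1512 of the 1679 spots listed at 0 in the value table had an intensity above 0 in the scan at 55% gain of the scanner tables. On slide 998, the 301x002 channel had 3 of its 6 scans above 0 at every spot listed at 0 in the value table. The median level of the higher members in the 005x002 channel of slide 60 was 1.18, far from the other 5 channels of that genotype (group median 2.06). It was the only such sample among 68 groups of 4 to 10 channels or slides examined, of which chance gives about 1 in 20.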

How the results depend on the processing

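By replicate number no paired analysis was possible because those of the labels run through all samples and no 2 groups share one. The channels of a slide do form a pair, and were compared within it. The same rule chose 53 of the 200 members again with quantile normalization, 75 with print block medians subtracted, 34 from scanner intensities, 88 with equal weight for slide number ranges, 172 with no slide dropped and 76.5% of them with equal weight for the dyes. Of the alternatives added after seeing the data, it chose 59 with entries at 0 missing (48 of them higher members), 54 without slide 999 and 51 without slides 998 and 999. In the hybrid comparison, adding hybrid channels beside another inbred gave 1 call by limma (BM333685, not a member, adjusted p = 0.0263) and 72.9% of higher members above 0, while every other alternative of either test called none. The slides so added hold inbred channels that entered the choice, and no share of all candidates is given for that fit. With dim spots left out, 1 lower member stayed, at 1.08 with 301 minus without (0% in its own direction), and at 0.21 for 301 first minus second (100% above 0). Leaving out 1 slide at a time gave 38.2% to 81.6% of lower members in their own direction between hybrids, and 22.9% to 50% of higher members above 0 between reciprocal hybrids. Scanner intensities gave 18.8% of higher members above 0 between reciprocals, and a median of 0.24 for the lower members. The causes were not tested. Among 408 values of the 20 named members under alternatives of the hybrid comparison, 50 had another sign, and none was called.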

Other observations

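With entries at 0 missing, the rule chose 32 lower spots for 301x301 and all others of its 200 on the higher side. These included all 48 higher members and 11 of the lower ones. The higher spots were higher with 301 at 67 positions on the hybrid-only slides (39.9%, median difference -0.12), and the 32 were lower at 25 (78.1%, median -0.13), against 45.2% of candidates above and 54.8% below 0. They lay in 24 and 15 print blocks. This choice was made after the entries at 0 were seen.

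The value table held 11915 values above 16 on the log2 scale in 91.4% of the channels used, with a highest value of 32.67. Of the members, 26 had such a value in at least 1 channel, among them AW331262, AW331177 and AW927771.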
